A study of Drosophila melanogaster with 2 samples.

Results

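Mitochondrial ribosomal protein genes were taken as the protein-coding genes of Drosophila melanogaster whose symbol starts with mRpL or mRpS, 73 of 13945 protein-coding genes in the Ensembl annotation. They comprise 47 genes of the large subunit (mRpL) and 26 of the small subunit (mRpS), and 67 of them have 1 annotated transcript start. Binding was measured by chromatin immunoprecipitation and sequencing (ChIP-seq) with an antibody to GFP, in a transgenic line that carries CG1663 with GFP fused at its C terminus; the labels class the experiment as one on a transcription factor. All chromatin came from whole pupae of this line at 24 hours with the sexes pooled, so there was 1 group, and its 2 biological replicates were numbered 1 and 3. Each replicate and the pooled data gave a list of 30000 peaks. The authors' threshold on the irreproducible discovery rate (IDR), a score of how alike peaks rank in both replicates, left 9657 of the pooled peaks, called the IDR list. These are exactly the 9657 strongest pooled peaks by signal, so a peak of the IDR list need not be in both replicate lists. The IDR and pooled lists are therefore not separate evidence. Neither other tissues nor an untagged line were analysed here, and the sequencing depth is unknown because the deposited lists hold no read counts.

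Mitochondria carry their own ribosomes, which translate the few proteins encoded by mitochondrial DNA, all of them parts of the oxidative phosphorylation complexes. The mitochondrial DNA supplies the ribosomal RNAs, whereas every protein of the mitochondrial ribosome is encoded in the nucleus, made in the cytoplasm and imported. The small subunit reads the messenger RNA, and the large subunit joins the amino acids. Many of the proteins descend from bacterial ribosomal proteins, and the others are found in mitochondrial ribosomes only.

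A gene was counted as bound where a peak's summit was no more than 500 bp from one of its transcript starts. In the IDR list 23 of the 73 genes were bound, 31.5% (exact 95% interval 21.1 to 43.4), beside 21.5% of all protein-coding genes. The pooled list bound 32 of them (43.8%), beside 36.3% of protein-coding genes. In replicate 1 the count was 24, or 32.9% (22.3 to 44.9), beside 31.3% of protein-coding genes. In replicate 3 it was 42, or 57.5% (45.4 to 69.0), beside 45.1%. The share in replicate 1 was thus close to its background, and the share in replicate 3 stood above its own. Intervals here and further on cover counting error over genes only, and genes are not replicates, so no test was made between gene groups.

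**Figure D1:**
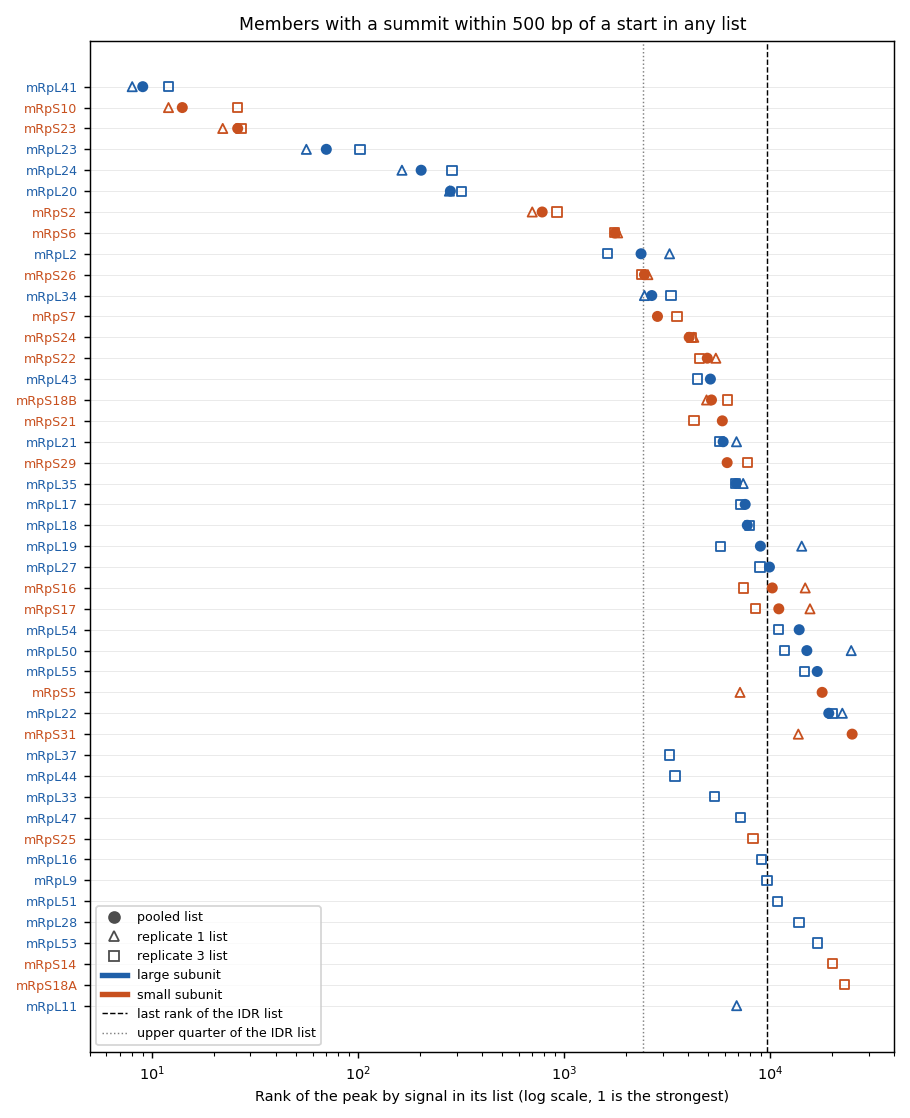
Rank by signal (log axis, 1 is the strongest) of the peak at each mitochondrial ribosomal protein gene with a summit within 500 bp in any list. Filled circles are the pooled list, triangles replicate 1 and squares replicate 3. The 9 genes whose filled circle is left of the dotted line, from mRpL41 (rank 9) to mRpL2 (rank 2358), are the strong ones.

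A site was called strong where its peak ranked within the upper 25% of the IDR list by signal, which is rank 2414 or better. By this measure 9 of the 73 genes had a strong site, 12.3%, beside 7.17% of protein-coding genes (1000 of 13945). Of the 23 bound genes 39.1% were strong, beside 33.4% of all bound protein-coding genes, and the median signal was 653.7 against 460.1. The signal is the peak caller's own value in arbitrary units and compares sites within a list only. The last gene inside the threshold was mRpL2 at rank 2358, and the first outside it was mRpS26 at rank 2450.

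The strongest small subunit gene was mRpS10 (FBgn0038307), which encodes a counterpart of bacterial ribosomal protein S10. Its peak on chromosome 3R (15229295 to 15229775, dm6) had a signal of 6881.25 and rank 14 in the IDR list, with 4335.54 and rank 12 in replicate 1 and 2554.94 and rank 26 in replicate 3. The summit lay between genes at −133 bp from the start of mRpS10, where negative values are upstream. It was followed by mRpS23 (FBgn0260407), a protein of mitochondrial ribosomes without a bacterial counterpart, on 2L (13835222 to 13835691). There the signal was 6172.85 at rank 26, and the replicates gave 3703.69 at rank 22 and 2489.48 at rank 27. Its summit was farther out, at −385 bp.

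The site at mRpS2 (FBgn0031639, 2L, 4850350 to 4850756), a counterpart of bacterial S2, had a signal of 1677.05 at rank 781, with 1047.99 (rank 699) in replicate 1 and 636.478 (rank 922) in replicate 3. At mRpS6 (FBgn0035534, 3L, 4364278 to 4364606), a counterpart of bacterial S6, the signal was 959.672 at rank 1767, with 563.471 (rank 1815) and 402.565 (rank 1745) in replicates 1 and 3. Both replicates placed these 4 small subunit genes in the same order.

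The sequence around the summits was rich in A and T. Shown are 101 bases centred on the summit, read on the strand of the ribosomal protein gene from RefSeq's Release 6 genome, for 5 strong sites that overlap no annotated exon and for mRpL19, the bound gene without a neighbouring start. They are mRpS10 (chr3R:15229482-15229582, plus strand), mRpS23 (chr2L:13835407-13835507, minus strand), mRpS2 (chr2L:4850504-4850604, minus strand), mRpL24 (chr2L:4945433-4945533, minus strand), mRpL20 (chr3L:13018085-13018185, minus strand) and mRpL19 (chr3R:8673959-8674059, plus strand). Capitals mark matches on either strand to the 10 words of 8 bases most enriched at the other IDR summits, all of which turned out to hold only A and T.
mRpS10: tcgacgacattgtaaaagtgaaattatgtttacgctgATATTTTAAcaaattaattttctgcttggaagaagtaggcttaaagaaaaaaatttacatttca
mRpS23: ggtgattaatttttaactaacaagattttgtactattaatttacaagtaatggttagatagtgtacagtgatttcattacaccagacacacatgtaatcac
mRpS2: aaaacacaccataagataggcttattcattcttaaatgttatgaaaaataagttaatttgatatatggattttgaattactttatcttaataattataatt
mRpL24: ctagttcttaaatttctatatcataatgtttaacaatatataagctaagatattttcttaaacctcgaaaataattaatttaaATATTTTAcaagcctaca
mRpL20: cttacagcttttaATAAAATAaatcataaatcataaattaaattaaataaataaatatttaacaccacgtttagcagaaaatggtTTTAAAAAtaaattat
mRpL19: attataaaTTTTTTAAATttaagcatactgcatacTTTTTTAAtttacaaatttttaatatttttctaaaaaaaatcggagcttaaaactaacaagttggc
The GC content of these windows was 26.7% at mRpS10, 28.7% at mRpS23, 18.8% at mRpS2, 19.8% at mRpL24, 15.8% at mRpL20 and 18.8% at mRpL19. The windows of mRpS23 and mRpS2 held none of the words. Not shown are mRpS6 and mRpL2, strong sites that also overlap no exon. Their windows had a GC content of 25.7% and 30.7%, and that of mRpL2 held none of the words.

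The strongest site of all was at a large subunit gene. The peak at mRpL41 (FBgn0034001), which encodes a protein specific to mitochondrial ribosomes, lay on 2R (15217553 to 15218009) with its summit between genes at −137 bp. It had a signal of 7697.9 at rank 9 of the 9657 IDR peaks, with 4683.56 at rank 8 in replicate 1 and 3033.69 at rank 12 in replicate 3. At mRpL23 (FBgn0035335, 3L, 2373377 to 2373820), a counterpart of bacterial L23, which sits at the exit of the peptide tunnel, the signal was 4394.0 at rank 70. The replicates gave 2759.09 (rank 56) and 1646.91 (rank 102) there. This was the one bound gene whose summit was downstream of its nearest start, at 58 bp in all lists, inside an exon of mRpL23.

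At mRpL24 (FBgn0031651, 2L, 4945263 to 4945687), a counterpart of bacterial L24, the signal was 3069.61 at rank 202, with 1974.13 (rank 163) in replicate 1 and 1104.11 (rank 285) in replicate 3. At mRpL20 (FBgn0036335, 3L, 13017920 to 13018348), a counterpart of bacterial L20, it was 2704.6 at rank 280, with 1632.48 (rank 277) and 1057.07 (rank 318). The weakest strong site was at mRpL2 (FBgn0036135, 3L, 11120352 to 11120800), whose bacterial counterpart lies close to the peptidyl transferase centre. Its signal was 761.544, and the replicates differed, with 343.066 at rank 3242 in replicate 1 and 424.617 at rank 1620 in replicate 3. The other 8 strong sites ranked better than 2414 in both replicates, whereas mRpL2 did so in replicate 3 alone.

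The 14 other bound genes had signals from 738.535 at mRpS26 to 188.736 at mRpL19, which ranked 8949. In descending order these were mRpS26, mRpL34, mRpS7, mRpS24, mRpS22, mRpL43, mRpS18B, mRpS21, mRpL21, mRpS29, mRpL35, mRpL17, mRpL18 and mRpL19. Among them mRpS29 encodes a GTP-binding protein, known in mammals as DAP3.

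Both replicate lists held a summit at 17 of the 23 bound genes. At the other 6, mRpS7, mRpL43, mRpS21, mRpS29, mRpL17 and mRpL18, replicate 1 had none within 500 bp. The 9 strong genes were bound in all 4 lists. Over the 21 genes with a summit in both replicate lists, in or out of the IDR list, the summits differed by a median of 13 bp, 17 of them by at most 50 bp, and the largest difference was 169 bp. Of these 21, 9 ranked better in replicate 1 and 12 in replicate 3.

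Beyond the IDR list, 9 genes were bound by weaker pooled peaks: mRpS16, mRpS17, mRpL50 and mRpL22 with a summit in both replicate lists, mRpL27, mRpL54 and mRpL55 with one in replicate 3, and mRpS5 and mRpS31 with one in replicate 1. At mRpS5 the pooled summit was at −4 bp, and replicate 1 held a summit at −59 bp (signal 83.5118) and a stronger one at 496 bp (144.704). Replicate 1 alone held a summit at mRpL11. Replicate 3 alone held one at 12 genes, namely mRpL37, mRpL44, mRpL33, mRpL47, mRpS25, mRpL16, mRpL9, mRpL51, mRpL28, mRpL53, mRpS14 and mRpS18A. Some genes missed the window narrowly, with the nearest IDR summit at −513 bp from mRpS25, −526 bp from mRpS31 (rank 2807) and −552 bp from mRpL33. No list held a summit at the remaining 28 genes, of which 20 belong to the large and 8 to the small subunit. They included mRpL12, whose bacterial counterpart forms the stalk that recruits translation factors, and mRpL3, mRpL4, mRpS9 and mRpS11, counterparts of core bacterial proteins.

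The subunits were compared by their shares. In the IDR list 12 of 47 large subunit genes were bound, 25.5% (13.9 to 40.3), and 11 of 26 small subunit genes, 42.3% (23.4 to 63.1). Of all protein-coding genes 21.5% were bound there, near the share of the large subunit. The pooled list gave 36.2% and 57.7%, beside 36.3% of all protein-coding genes. In replicate 1 the shares were 25.5% and 46.2%, with 12 genes each, beside 31.3%. In replicate 3 they were 55.3% and 61.5%, with 26 and 16 genes, beside 45.1%. The small subunit had the higher share in each list, but the intervals overlapped widely and the difference was narrow in replicate 3. Among as many peaks as the IDR list holds, replicate 3 alone bound 19 of 47 large and 14 of 26 small subunit genes. Replicate 1 alone bound 9 of 47 and 9 of 26. The share of all protein-coding genes was not taken at that depth, so these counts have no background beside them. Strong sites were found at 5 large and 4 small subunit genes, 10.6% and 15.4%, beside 7.17% of all protein-coding genes.

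The genes were also split by a list of symbols taken to have a bacterial counterpart, and each gene not on it fell into the other class. Of the 43 listed genes 17 were bound in the IDR list, 39.5% (25 to 55.6). Of the 30 genes not on that list, 6 were bound, 20% (7.71 to 38.6), among them mRpL41 and mRpS23. These intervals overlapped too. Of all protein-coding genes 21.5% were bound there, near the share of the genes without a listed symbol. The pooled list gave 51.2% for the listed and 33.3% for the other genes, beside 36.3%. In replicate 1 the shares were 41.9% and 20%, beside 31.3%. In replicate 3 they were 62.8% and 50%, beside 45.1%. Both classes were above the background in replicate 3, but the interval of the unlisted genes (31.3 to 68.7) held it. The genes tko and bonsai encode the mitochondrial counterparts of bacterial S12 and S15 under other symbols, and neither had a summit in any of the 4 lists.

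Summits at these genes sat upstream of the start. Of the 23 IDR summits 22 were upstream, 95.7%, beside 84.2% of those at all bound protein-coding genes. The median position was −167 bp, with quartiles at −251.5 and −134 bp, against −153 bp for all bound protein-coding genes. The band between 50 and 200 bp upstream held 65.2% of the summits (15 of 23), beside 43.5%. The medians were −163.5 bp for the large and −167 bp for the small subunit, a smaller difference than the summits of one gene could show between replicates. By annotation 20 of the summits were intergenic, that of mRpL2 lay in an intron of FoxK, and those of mRpL23 and mRpL18 lay in an exon, in the latter case of the neighbouring gene Taz.

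**Figure D2:**
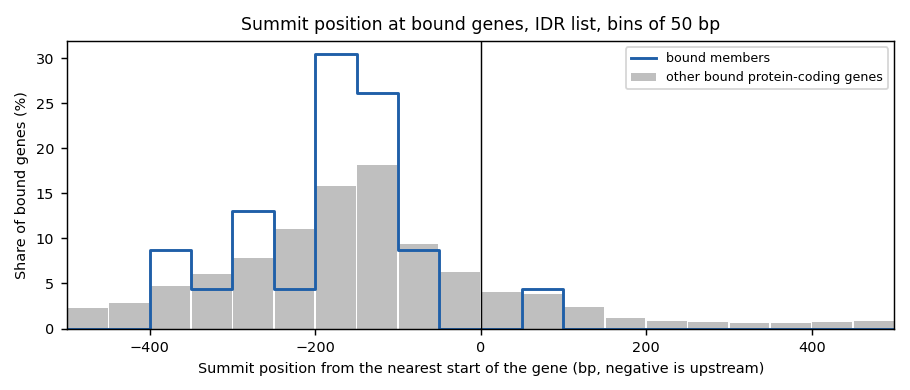
Position of the summit from the nearest start of the gene (bp, negative is upstream) in bins of 50 bp, as a share of bound genes in the IDR list. The blue line is the 23 bound mitochondrial ribosomal protein genes, of which 22 were upstream, and grey bars are the other bound protein-coding genes.

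Almost every one of these summits also lay near the start of another gene. For 22 of the 23 the same summit was within 500 bp of a start of a second annotated gene, 95.7%, beside 52.1% of all bound protein-coding genes. For 21 (91.3%, beside 49.1%) that gene was on the opposite strand. Of the 23 genes, 20 had a protein-coding gene on the opposite strand that started within 500 bp upstream. Of the 2995 bound protein-coding genes, 1374 had one. Neither sharing nor summit position was compared among genes of like arrangement, so gene layout and binding cannot be told apart in these shares. With a window of 200 bp, which leaves out starts farther from the summit, 9 of 17 bound genes shared theirs. The share of all bound protein-coding genes was not taken with that window. Whether the difference from the background holds there is therefore unknown. In 15 of the 22 the summit was closer to the neighbour's start than to that of the ribosomal protein gene, 68.2%. It was 47.3% of bound protein-coding genes that share a summit (738 of 1561). Both coding genes of a pair usually enter that background with opposite answers, so it lies near an even split by construction. Some of the 15 were near ties, such as mRpS10 (−133 against −124 bp), which was the nearer gene in replicate 3. At mRpS22 the IDR list also held a weaker summit at −80 bp (rank 6239). The lists hold nothing that assigns a shared summit to one gene or the other, so binding at these 22 genes and at their neighbours cannot be told apart.

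Among the strong sites, mRpS10 shared its summit with Art3, an arginine methyltransferase gene, whose start was nearer at −124 bp. The summit of mRpS23 was −107 bp from CenG1A, which encodes a GTPase-activating protein for Arf. Those of mRpL24 and mRpL20 were −96 bp from betaggt-I, which encodes a subunit of a protein prenyltransferase, and −131 bp from Icmt, which encodes a methyltransferase of prenylated proteins. The summit of mRpS2 was −87 bp from Mon1, a gene for a regulator of the small GTPase Rab7, and that of mRpL2 was −114 bp from a start of FoxK, a forkhead transcription factor gene. At mRpL23 and mRpS6 the ribosomal protein gene was the nearer one, with CG9004 at −108 bp and Cip4 at −334 bp. For mRpL41 the only other start was that of the noncoding RNA gene lncRNA:CR44463, on the same strand and 441 bp away.

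**Figure D3:**
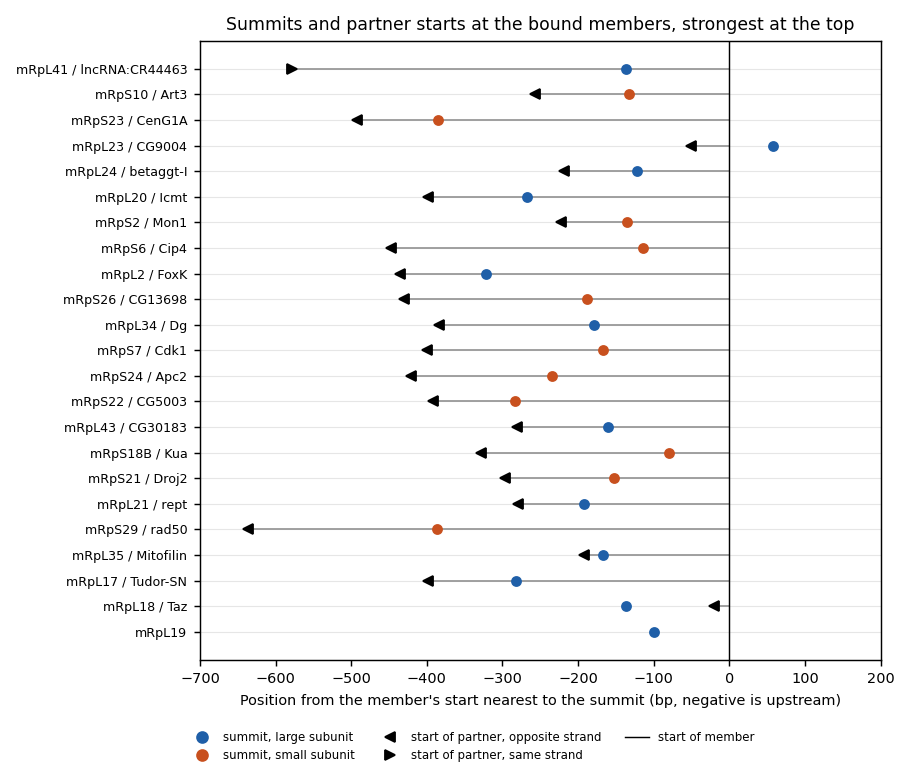
Position of the IDR summit (circles) and of the start of the gene that shares it (triangles), in bp from the start of the ribosomal protein gene at 0, for the 23 bound genes with the strongest at the top. Triangles pointing left are genes on the opposite strand (21 of 22), and the summits lie between both starts except at mRpL23 and mRpL18, while mRpL19 has no neighbour.

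The weaker sites had neighbours of many kinds. The summit of mRpS7 lay near the cell cycle kinase gene Cdk1, that of mRpL34 near the dystroglycan gene Dg, that of mRpS24 near Apc2, a gene of Wnt signalling, and that of mRpS29 near the DNA repair gene rad50. A pair of neighbours encode mitochondrial proteins themselves, namely Mitofilin beside mRpL35, which shapes the cristae, and Taz beside mRpL18, which remodels cardiolipin. The Mitofilin start was −25 bp from the summit, the closest of all. Other neighbours were rept (mRpL21), Tudor-SN (mRpL17), Droj2 (mRpS21), Kua (mRpS18B), CG13698 (mRpS26), CG5003 (mRpS22) and CG30183 (mRpL43). The summit of mRpL19 alone, at −100 bp, had no other annotated start within 500 bp. It was also the weakest of the 23, with a signal of 143.331 at rank 5729 in replicate 3 and 55.7567 at rank 14198 in replicate 1.

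This arrangement is common among mitochondrial ribosomal protein genes whether bound or not. A protein-coding gene on the opposite strand started within 500 bp upstream of 53 of the 73, 72.6% (60.9 to 82.4), against 27.4% of all protein-coding genes (3815 of 13945). The share was 72.3% in the large and 73.1% in the small subunit, and 39.1% among 92 cytoplasmic ribosomal protein genes. The bound shares were therefore set out with and without such a head-to-head neighbour, a split chosen after the values were seen.

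With a head-to-head neighbour, 20 of 53 mitochondrial ribosomal protein genes were bound in the IDR list, 37.7% (24.8 to 52.1), beside 36.0% of protein-coding genes with such a neighbour (1374 of 3815). Without one, 3 of 20 were bound, 15.0% (3.21 to 37.9), beside 16.0% (1621 of 10130). In replicate 1 the shares with a neighbour were 39.6% and 40.1%, and in replicate 3 they were 69.8% and 68.4%. Compared with genes of like arrangement, the ribosomal protein genes were thus bound about as often as protein-coding genes in general in each of these lists. Without a neighbour they were below in both replicates, at 15.0% against 28.0% in replicate 1 and 25% against 36.3% in replicate 3, and all 3 intervals for these 20 genes held the background share. Within the genes with a neighbour, 10 of 34 in the large subunit (29.4%) and 10 of 19 in the small subunit (52.6%) were bound. What the arrangement contributes to the share over all 73 genes was not tested.

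**Figure D4:**
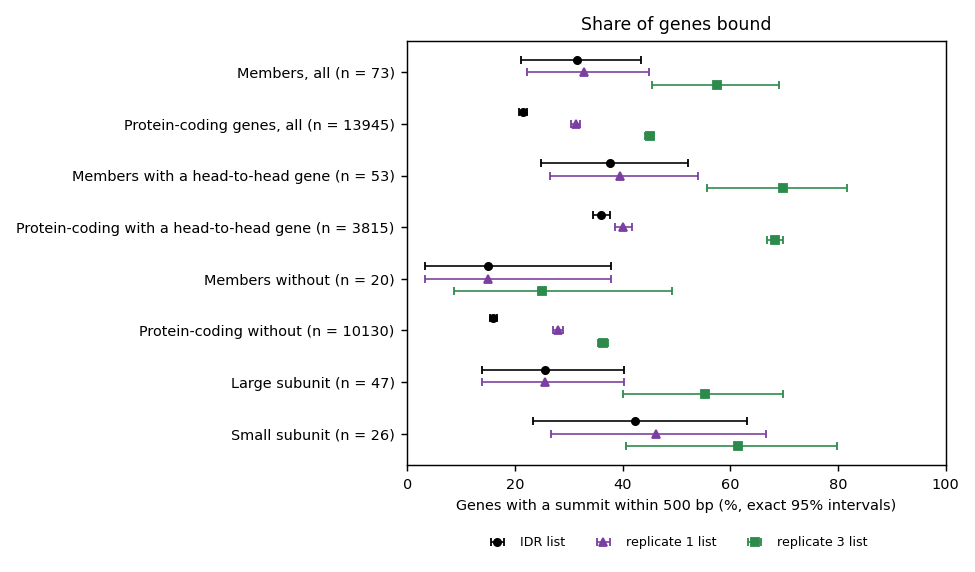
Share of genes with a summit within 500 bp of a start (%) in the IDR list and in each replicate, with exact 95% intervals over genes. The members in the labels are the mitochondrial ribosomal protein genes, and with a head-to-head gene they reach 37.7% in the IDR list beside 36.0% of protein-coding genes so arranged.

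The bound share also differed with the distance between the paired starts. Where the starts were up to 100 bp apart, 3 of 18 ribosomal protein genes were bound in the IDR list (16.7%), beside 26.8% of 835 protein-coding genes. These were mRpL2, mRpL18 and mRpL23, with gaps of 64, 20 and 24 bp. Their summits, at −322, −137 and 58 bp, lay outside those gaps. From 101 to 250 bp 3 of 7 were bound (42.9%), beside 31.2% of 1145, and from 251 to 500 bp 14 of 28 (50%), beside 43.2% of 1835. In the IDR list both groups rose from class to class, and the intervals of the ribosomal protein genes overlapped between the classes. In replicate 1 the shares of the ribosomal protein genes were 16.7%, 57.1% and 50%, beside 29.3%, 36.2% and 47.4% of all protein-coding genes. In replicate 3 they were 61.1%, 71.4% and 75%, beside 64.9%, 62.9% and 73.4%. The order of the classes thus differed between the groups in both replicates.

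**Figure D5:**
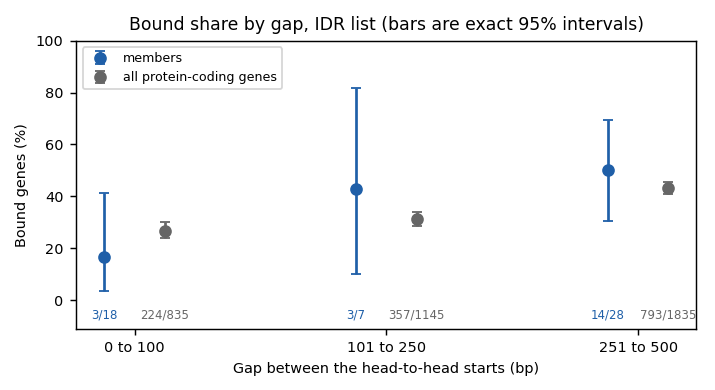
Bound share in the IDR list (%) by the distance between head-to-head starts (bp), with exact 95% intervals and counts under each point. Mitochondrial ribosomal protein genes (members, blue) rise from 16.7% to 50% and all protein-coding genes (grey) from 26.8% to 43.2%.

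The motif content of the summit windows was described in the same way. Mean GC content in the 101 bases around the 23 summits was 27.8%, from 15.8% at mRpL20 to 51.5% at mRpL18, and the median was 28.7%. The median was 30.7% at 2234 other protein-coding promoter summits and 30.7% in the 50 unbound members of the group, taken at −167 bp from the start. It was 34.7% over all protein-coding promoters at that position. At least 1 of the 10 A and T words occurred in 11 of the 23 windows (47.8%), in 34.7% of the other promoter summits, in 36.0% of the unbound group and in 27.2% of all promoters. The most frequent were TTTAAAAA, ATATTTTA and ATAAAATA, each in 4 windows (17.4%).

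Of the 11 known motifs searched on both strands, 8 had no match in the 23 windows. These were the DRE core TATCGATA, Motif 1 (GGTCACAC), the E-box CACGTG, the NRF-1 core GCGCATGC, the ETS site CCGGAA, the ERR site TCAAGGTCA, GAGAGAG and the initiator TCAGTT, which were present in at most 6.54% of other promoter summits. Within 100 bp of the summit, 5 of these 8 had matches, with the DRE core in 2 windows (beside 3.72% of other promoter summits), GAGAGAG in 2 (beside 6.36%) and the E-box, the ETS site and the initiator in 1 each. In mammals NRF-1 and ETS factors are known for sites in promoters of nuclear genes of mitochondrial proteins. The letters TATAAA were present in 6 windows (26.1%), beside 24.7% of other promoter summits and 20.2% of all promoters. CANCNCTA (Motif 7) was found at mRpL43 and CACACACA at mRpL2.

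By chromosome arm, 5 of 12 genes on 2L were bound in the IDR list (41.7%, beside 20.6% of the protein-coding genes of that arm) and 5 of 12 on 2R (41.7%, beside 19.8%). On 3L it was 7 of 17 (41.2%, beside 22.7%) and on 3R 6 of 21 (28.6%, beside 21.6%). On the X chromosome it was 0 of 11, which allows a share of up to 27.3%, and 23.6% of X-linked protein-coding genes were bound, so in this list a difference was not detectable with 11 genes. The pooled list held 1 of the 11, mRpL22, which is 9.09% (0.23 to 41.3), beside 46.5% of X-linked protein-coding genes, a share above the interval. Replicate 1 also held 1, with the same interval, beside 36.8%, a share inside it. Replicate 3 held 5, or 45.5% (16.7 to 76.6), beside 56.7%. Among X-linked genes with a head-to-head neighbour the pooled share was 14.3% (0.361 to 57.9), beside 56.7%, which is inside the interval. With such a neighbour the IDR shares were 55.6% on 2L (beside 35.2%) and 30.0% on 2R (beside 32.6%). On 3L it was 58.3% (beside 41.5%) and on 3R 33.3% (beside 37.5%).

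Genes that work with the mitochondrial ribosome were set beside it from a list of 40 matched genes for translation factors, aminoacyl-tRNA synthetases, mitochondrial transcription and RNA factors, and tko and bonsai. The IDR list bound 7 of them, 17.5% (7.34 to 32.8), beside 21.5% of all protein-coding genes. In the pooled list 13 were bound (32.5%, beside 36.3%), in replicate 1 it was 11 (27.5%, beside 31.3%), and in replicate 3 it was 17 (42.5%, beside 45.1%). By class the 7 of the IDR list were 3 of 16 synthetases, 3 of 13 transcription and RNA genes, 1 of 9 translation factors and 0 of the 2 ribosomal proteins. One site stood out in strength, that of PNPase, a polynucleotide phosphorylase gene, with a signal of 7037.11 at rank 13 (ranks 10 and 20 in the replicates) and a summit 73 bp downstream of its start. The other 6 had signals between 395.149 at ProRS-m and 234.885 at CysRS-m, with Suv3 (an RNA helicase) at 369.788, the initiation factor gene mIF2 at 352.973, ArgRS-m at 328.123 and mTerf5 at 305.228. A head-to-head neighbour was present at 20 of the 40.

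The cytoplasmic ribosomal protein genes differed from the mitochondrial ones in bound share, in share of strong sites and in summit position. In the IDR list 59 of 92 were bound, 64.1% (53.5 to 73.9), against 31.5% (21.1 to 43.4) of the mitochondrial ones and beside 21.5% of all protein-coding genes. The shares were 57.6% against 32.9% in replicate 1 (beside 31.3%) and 85.9% against 57.5% in replicate 3 (beside 45.1%). The median IDR summit was at −19 bp against −167 bp, and 55.9% of the summits were shared against 95.7%. A head-to-head neighbour was present at 39.1% of the cytoplasmic and 72.6% of the mitochondrial genes, and these values were not matched for it. Only 2 of the 92 had a strong site, 2.17%, against 9 of the 73, beside 7.17% of all protein-coding genes. With the same number of ranks it was 1.09% against 11.0% in replicate 1 (beside 6.91%) and 3.26% against 13.7% in replicate 3 (beside 7.4%). The median signal was lower at the cytoplasmic genes in the IDR list (344.1 against 653.7) and in replicate 1 (150.8 against 243.1), and higher in replicate 3 (159.7 against 137.8). Both replicate lists gave the difference in position, with medians of −29 and 10 bp for the cytoplasmic and −150.5 and −152 bp for the mitochondrial genes.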

How the data were processed

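ChIP-seq peak lists were used for replicate 1, replicate 3, the pooled data and the IDR threshold. Per the README deposited with each sample, alignments were to dm6 and peaks were called against 1 control; per the labels, chromatin was sonicated, with a size range of 200 to 800. Caller, settings, aligner and IDR cutoff: not given in the sources used here. The authors' signal (column 7 of the deposited lists) was used to rank peaks. The deposited −log10 q-values (column 9) were not used, because many peaks share the highest value. The authors' summit offset (column 10) was added to the peak start. The IDR list held exactly the 9657 strongest pooled peaks. Depth per sample is unknown, as no read totals are in these lists, and precision follows from the number of genes.

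Starts came from Ensembl release 115 (Release 6 genome), for 13945 protein-coding genes among 18164. Per gene the highest-signal summit within 500 bp of any start was kept, with its signed distance to the nearest start. Shared summits lay within 500 bp of another gene of any biotype. Intervals are exact (Clopper-Pearson, 95%), and a count of 0 allows up to 3. The 10 words of 8 bases were ranked at 9634 IDR summits away from the members against windows 1000 bp to each side. Of 52 companion symbols written, 40 matched. Every bound member is named, with full values for strong ones. The members, lists and rules were chosen with earlier results of these data known, and the counting was tested on simulated data. Alternatives were windows of 200 and 1000 bp, any base of the peak, the most upstream start, the stronger 50% of IDR peaks, each other list, each replicate left out, protein-coding neighbours, and 100 bp around summits. Added after the values were seen were the head-to-head split and mRpS30 and mRpS18A counted in the large subunit, where their mammalian counterparts sit. Python 3.11.15, numpy 2.4.6, pandas 2.3.3, scipy 1.17.1 and matplotlib 3.10.9 were used.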

Additional observations from a re-analysis of the deposited data

How the results depend on the processing

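Over 9 results, 65 alternative values stayed near the reported one, 20 moved and 0 reversed. The results other than the median position are counts, which have no direction to reverse. The strong genes had to stay at 9 in the stronger 50% of IDR peaks and in the pooled list, because all hold the same top peaks. The 20 genes bound with a head-to-head neighbour counted as near 23, but their share of 37.7% stood beside 36.0%. Over all 73 genes it was 31.5% beside 21.5%. The stronger 50% of IDR peaks left 13 genes bound (6 large, 7 small subunit), 12 of them with an upstream summit, 13 with a shared one, and 2 companions. The whole replicate 3 list gave 42 genes (26 large), 40 upstream, 39 shared and 17 companions, and it admits 30000 peaks in place of 9657. Companions were 13 in the pooled and 11 in the replicate 1 list. The median position was −137 bp with a window of 200 bp, −149.5 bp in the pooled list, −150.5 bp in replicate 1 and −152 bp in replicate 3, and shared summits were 9 of 17 with the window of 200 bp, which leaves out starts farther away. With each replicate left out and the other taken to 9657 peaks, the bound genes ranged from 18 to 33, the large subunit from 9 to 19, the small from 9 to 14, the median from −173 to −166 bp, upstream summits from 16 to 32, strong genes from 8 to 10, shared summits from 17 to 31 and companions from 6 to 8. The higher values came from replicate 3, and the cause was not tested. For these counts, and for those with the window of 200 bp or the stronger 50% of IDR peaks, no share of all protein-coding genes was taken. No paired analysis was possible because there was 1 group. Depth is unknown, 73 genes limit every share, and a site bound in few cells of the whole pupa may not reach a peak.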

Other observations

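The sites at mRpL37 and mRpL44 ranked highest among the 12 found in the replicate 3 list alone, with signals of 238.349 (rank 3238, −140 bp) and 226.13 (rank 3446, −173 bp). The nearest pooled summits were 37172 bp from mRpL37 and 3335 bp from mRpL44. Of the 3500 strongest replicate 3 peaks, 35 (1.0%) lacked a pooled summit within 500 bp.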
